A study of Homo sapiens with 6 samples.

Results

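The AP-1 genes FOS, FOSB, FOSL1, FOSL2, JUN, JUNB and JUND, together with ATF3, were followed through p53 activation in HCT116 cells. These 8 genes were chosen by symbol, and each symbol matched 1 of the 57905 rows of the count matrix. All 8 passed the low-count filter, which left 16565 genes for testing. HCT116 is an established human colorectal carcinoma line with wild-type p53. Cells labelled Nut 0h received the vehicle DMSO, cells labelled Nut 1h and Nut 10h received Nutlin-3a, which keeps MDM2 from binding p53, at 10 µM for 1 or 10 h, and RNA-seq was done on 2 biological replicates of each. The vehicle group is the same for both times, so time in culture and the drug cannot be told apart.

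AP-1 is a dimer of basic leucine zipper proteins. JUN proteins pair with each other or with FOS proteins, FOS proteins need a partner, and the dimers bind the short DNA elements called TRE and CRE. FOS, FOSB, JUN and JUNB are classical immediate early genes, whose short-lived mRNAs are made within minutes of a growth or stress signal through MAP kinases, whereas JUND is made more constantly and FOSL1 is held high in many carcinoma cells. ATF3 is a stress-inducible member of the same zipper superfamily and a known target of p53.

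The libraries held between 26068076 and 35473485 counts, and both Nut 1h libraries had fewer than the other 4. Mitochondrial genes took 4.99 and 6.18% of counts in vehicle, 8.44 and 8.15% after 1 h, and 6.45 and 7.06% after 10 h. With mitochondrial genes left out, 6 of the 8 genes were called after 1 h, 4 after 10 h and 4 between these times, as with them. Of all 16590 genes tested in that fit, 11068, 4822 and 11191 were called in the same order. After 1 h FOS was then at -1.35, ATF3 at 1.59 and JUND at -1.77. MDM2, a direct p53 target used as the check of the treatment, had 1688 and 2083 normalized counts in vehicle, 8694 and 8500 after 1 h, and 22633 and 27946 after 10 h. Normalized counts are counts scaled by the TMM method to the mean library size. Of 8 markers of colon epithelium, 7 were high in all 6 libraries and VIL1 was at 0 to 10 counts, and their summed normalized counts ranged from 176200 to 206700 in vehicle, 119700 to 129800 after 1 h and 222800 to 265700 after 10 h. KRT8 and KRT19 made up most of this sum, and not every marker moved with it. EPCAM had 10040 and 8725 normalized counts in vehicle, 12580 and 13180 after 1 h, and 7309 and 7733 after 10 h, and CDH1 was also higher in both Nut 1h libraries than in vehicle. Counts summed over 9 matched markers of other cell types were 1494 to 1580 in vehicle, 897 to 909 after 1 h and 1963 to 2035 after 10 h, and PTPRC, CD3E, CD14 and COL3A1 among them were at 0 to 7. COL1A1, a fibroblast collagen, made up most of the sum, with 1334 and 1394 normalized counts in vehicle, 810 and 782 after 1 h, and 1278 and 1159 after 10 h. ACTA2, smooth muscle actin, was at 67 and 75, 44 and 60, and 631 and 692 in the same order, and DES, the muscle protein desmin, was between 28 and 102. The part of these markers in the results was not tested. A feature of the whole data set touches every value after 1 h. The change after 1 h followed the GC content of the transcript, with a median log2 fold change of 0.79 over the 2609 tested genes below 40% GC and of -1.48 over the 636 genes above 65% GC. The same medians after 10 h were 0.03 and -0.14. Values after 1 h are therefore also given with an offset that fits each library’s deviation as a smooth function of GC content and removes such a trend whatever its source.

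The promoter windows show which members carry CRE-type letters close to the start, the element through which ATF, CREB and JUN proteins act. RefSeq promoter sequences (GRCh38.p14) were found for 7 of the 8 genes, and none for FOSL1. Each window runs from 250 bases before to 50 after the start and was searched on both strands for TGACGT (the CRE half-site), TGACGTCA (the full CRE, which contains TGACGT), TGACATCA (the site known from the JUN promoter), TGACTCA (the TRE) and TATAAA. Positions are counted from the annotated start, negative upstream. FOS, FOSB and FOSL2 each held TGACGT on the gene's strand at almost the same distance, beginning at -64, -60 and -66, and JUN held TGACATCA beginning at -67. JUND held a full CRE at -200 to -193 and a further half-site on the opposite strand at -87 to -82, and the upstream start of ATF3 held TGACATCA at -123 to -116. The following stretches carry these letters in capitals, 250 bases up to the start for FOS, JUN, JUND and the upstream start of ATF3, and 50 bases around the match for FOSB and FOSL2.
FOS, chr14:75278578-75278827, plus strand: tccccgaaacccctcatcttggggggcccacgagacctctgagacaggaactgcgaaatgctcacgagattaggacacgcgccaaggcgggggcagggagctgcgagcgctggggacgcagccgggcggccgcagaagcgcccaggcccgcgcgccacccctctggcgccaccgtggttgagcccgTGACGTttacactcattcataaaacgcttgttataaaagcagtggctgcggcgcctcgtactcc
FOSB, chr19:45467911-45467960, plus strand: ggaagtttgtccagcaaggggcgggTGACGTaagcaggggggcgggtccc
FOSL2, chr2:28392773-28392822, plus strand: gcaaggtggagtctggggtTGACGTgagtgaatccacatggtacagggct
JUN, chr1:58784048-58784297, minus strand: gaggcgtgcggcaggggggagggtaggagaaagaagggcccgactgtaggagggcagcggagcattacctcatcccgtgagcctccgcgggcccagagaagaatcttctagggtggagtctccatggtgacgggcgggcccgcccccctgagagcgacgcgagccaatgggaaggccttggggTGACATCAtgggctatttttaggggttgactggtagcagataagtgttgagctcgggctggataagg
JUND, chr19:18281623-18281872, minus strand: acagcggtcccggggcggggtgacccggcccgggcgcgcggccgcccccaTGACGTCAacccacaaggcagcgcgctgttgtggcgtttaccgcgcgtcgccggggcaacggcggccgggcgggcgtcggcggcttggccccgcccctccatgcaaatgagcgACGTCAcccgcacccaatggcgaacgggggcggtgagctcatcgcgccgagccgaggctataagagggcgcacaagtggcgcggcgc
ATF3, upstream start, chr1:212565157-212565406, plus strand: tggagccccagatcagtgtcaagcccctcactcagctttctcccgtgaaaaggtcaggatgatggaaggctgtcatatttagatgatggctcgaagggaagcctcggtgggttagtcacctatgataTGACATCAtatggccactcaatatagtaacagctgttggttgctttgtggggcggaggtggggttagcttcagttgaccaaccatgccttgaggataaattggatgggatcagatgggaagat

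Of 35116 RefSeq promoter windows of this length, 7.98% held TGACGT, 1.85% TGACGTCA, 2.61% TGACATCA and 4.95% TGACTCA. The TRE letters were found in 1 member, FOSL2, at 4 to 10 past the start. TATAAA, held by 11.5% of windows, began at -33 in FOS, -30 in FOSB, -31 in JUNB and -230 in the window of the second ATF3 start. No window held the CArG box bound by SRF (1.29% of all windows) or the p53 half-site (6.63%) under the letters searched. Sequence more than 250 bases upstream, or at other starts, was not searched. These genes may therefore hold either element outside the windows. The printed stretches of 250 bases differed in base composition, from 49.2% GC for ATF3 to 74.8% for JUND. ATF3 has a second RefSeq start, whose window held none of the CRE-type letters, and gene counts do not say from which start its reads came. Neither window was matched to the start of the canonical GENCODE transcript of ATF3, so the promoter of that transcript may lie outside what was searched. Whether the second start marks a promoter at all was not tested. Its TATAAA at -230 and its lack of CRE-type letters describe that stretch of sequence alone.

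**Figure D1:**
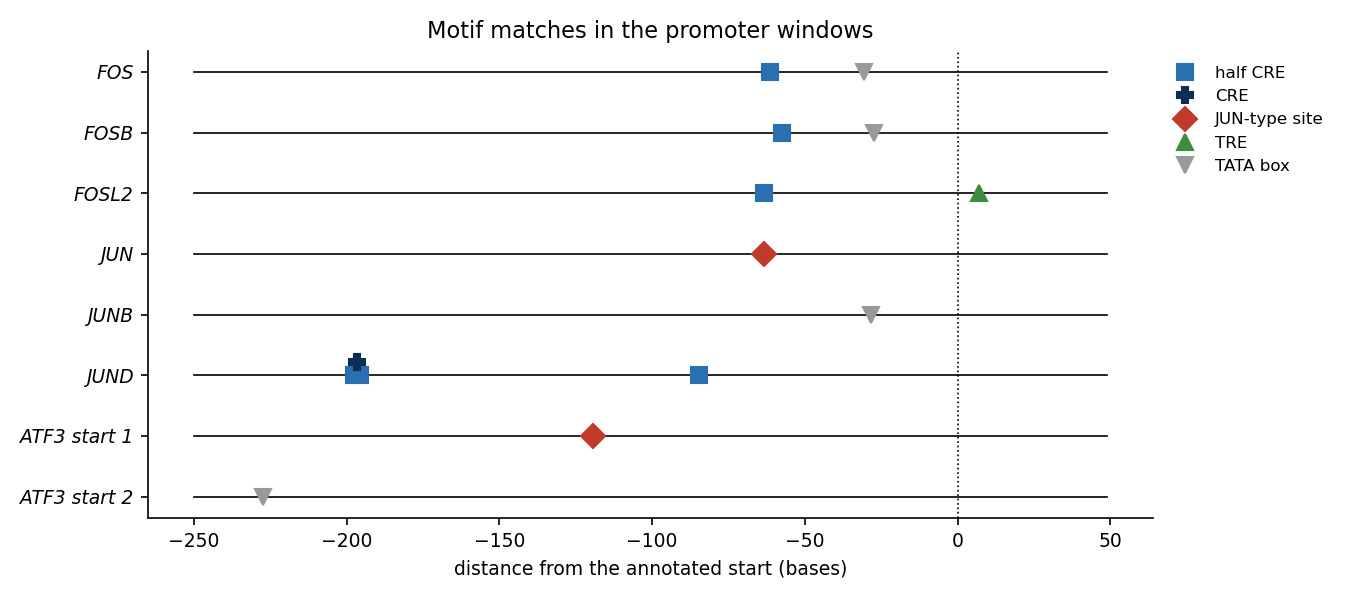
Each horizontal line is 1 promoter window of RefSeq, with distance from the annotated start in bases on the horizontal axis and a marker for each motif match on either strand. The CRE half-sites of FOS, FOSB and FOSL2 and the TGACATCA match of JUN lie in one narrow band upstream of the start, beginning between -67 and -60, and those of JUND and ATF3 lie elsewhere.

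After 1 h, 3 of the 8 genes were upregulated (FOSL2, JUN and ATF3) and 3 were downregulated (FOS, JUNB and JUND) by edgeR's quasi-likelihood test at an adjusted p of at most 0.05. Over all tested genes, 34.5% were called higher and 32.3% lower in the same comparison, so the share of the members called was near that of the background. After 10 h, 2 genes were upregulated (FOSL2 and ATF3) and 2 downregulated (FOS and JUN), against 14.1% of all tested genes higher and 14.9% lower. The median log2 fold change of the members was 0.07 after 1 h and -0.16 after 10 h, beside 0.05 and 0.000174 over all tested genes. The members thus had no common direction, and each is described by itself.

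**Figure D2:**
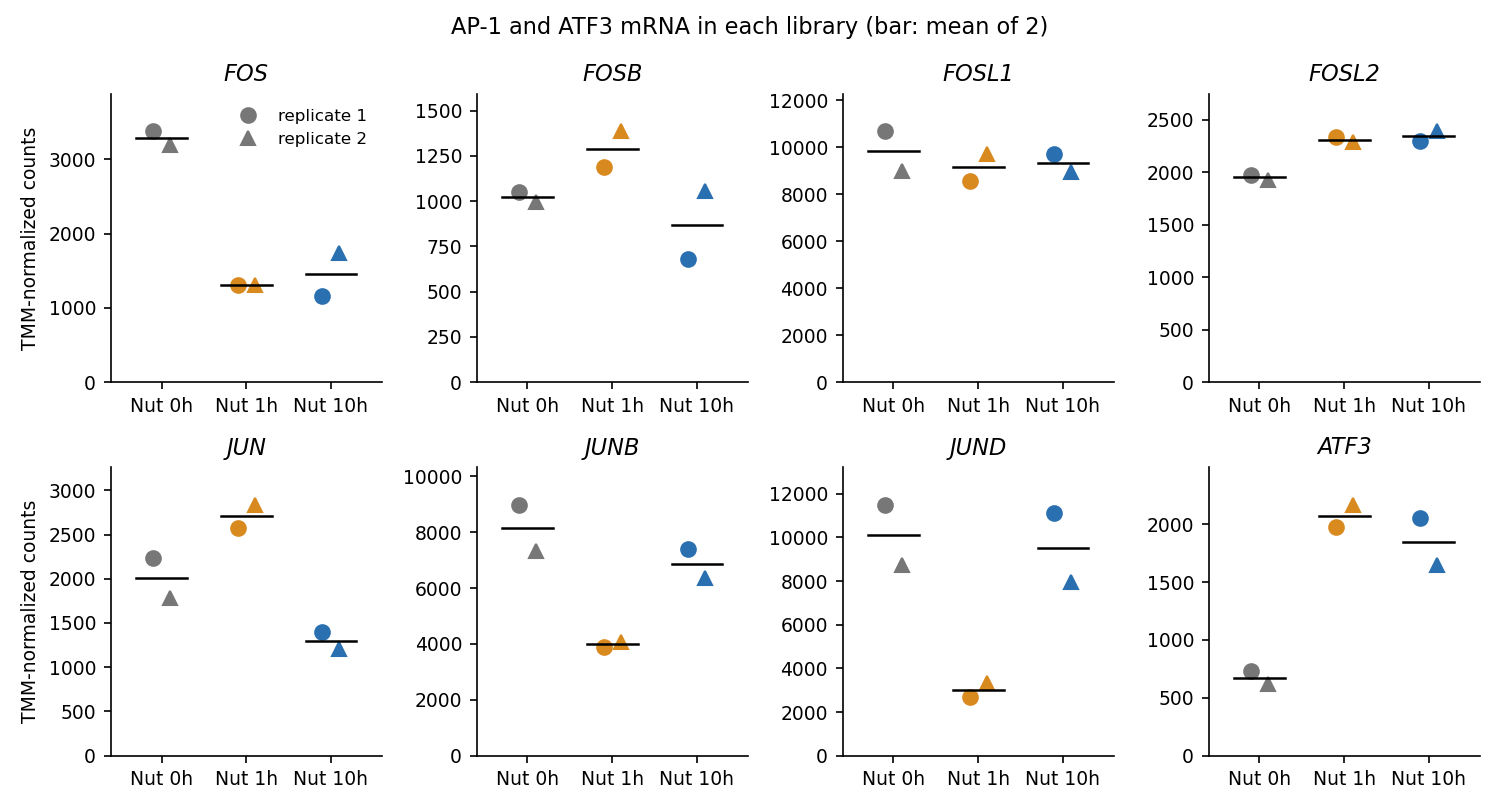
TMM-normalized counts of each gene (vertical axes, starting at 0) in the 2 libraries of each condition, with circles for replicate 1, triangles for replicate 2 and a bar for the mean. FOS is high only in the vehicle libraries, JUNB and JUND are low only after 1 h, and ATF3 is low only in the vehicle libraries.

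FOS (GRCh37 chr14:75745529-75748933, plus strand, 4 exons), the founding member of its family, was downregulated at both times. It had 3379 and 3190 normalized counts in vehicle, 1305 and 1311 after 1 h, and 1164 and 1741 after 10 h. Both treated groups lay below the vehicle libraries with no overlap. The log2 fold change after 1 h was -1.33 ± 0.14 (SE, n = 2 per group, edgeR adjusted p = 2.63e-06), a 2.51-fold lower level, and after 10 h it was -1.18 ± 0.14 (edgeR adjusted p = 2.54e-05). In bulk RNA, fewer cells that express a gene and less RNA per cell cannot be told apart. Nut 10h and Nut 1h did not differ by the test (log2 fold change 0.15, 95% interval -0.16 to 0.46, edgeR adjusted p = 0.364). The Nut 10h libraries were far apart, by 0.57 on the log2 scale, which was more than in 99.8% of 11576 genes of mean count 100 or more. Without replicate 1 of Nut 10h the value against Nut 1h became 0.45 and passed the test, and without replicate 2 it was -0.12.

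The fall of FOS after 1 h was larger than the data set's GC trend. FOS transcripts have 52.8% GC, and the 5030 tested genes with 50 to 60% GC had a median of -0.44 after 1 h with quartiles of -0.82 and -0.04. With the GC-content offset, FOS remained downregulated, by 1.11 on the log2 scale after 1 h (edgeR adjusted p = 1.61e-06) and by 1.18 after 10 h. Its value kept its sign and its call in all 18 other fits at each time, between -1.38 and -1.08 after 1 h and between -1.48 and -0.91 after 10 h.

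FOSB, the close relative of FOS and also an immediate early gene, did not follow it. It had 1051 and 994 normalized counts in vehicle, 1189 and 1387 after 1 h, and 681 and 1054 after 10 h. Both Nut 1h libraries were above the other 4, and the Nut 10h libraries lay on both sides of the vehicle values. Neither treated group was called against vehicle, with a log2 fold change of 0.33 after 1 h (95% interval -0.01 to 0.67, edgeR adjusted p = 0.0777) and of -0.24 after 10 h (-0.58 to 0.10, edgeR adjusted p = 0.292). The call after 1 h depended on the fit and was made in 8 of 18 other fits. After 10 h FOSB was called lower without replicate 2 of Nut 10h (-0.57, edgeR adjusted p = 0.000761) and was at 0.046 without replicate 1. FOSB fell between the treated groups, by 0.57 on the log2 scale from Nut 1h to Nut 10h (edgeR adjusted p = 0.00575). That call rested on single libraries, and the value was -0.25 (edgeR adjusted p = 0.0914) without replicate 1 of Nut 10h and -0.45 (edgeR adjusted p = 0.0878) without replicate 2 of Nut 1h. With the GC-content offset, FOSB was 0.84 higher after 1 h and was called (edgeR adjusted p = 0.000145). The FOSB locus (GRCh37 chr19:45971253-45978437, plus strand) overlaps ERCC1 on the opposite strand, and the strand setting of the counting is not given in the sources used here.

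FOSL1 (GRCh37 chr11:65659520-65668044, minus strand), which encodes Fra-1, was the most abundant FOS-family mRNA and showed no change that passed the test. It had 10693 and 8979 normalized counts in vehicle, 8564 and 9736 after 1 h, and 9713 and 8938 after 10 h, and the 3 groups overlapped. The log2 fold change was -0.10 after 1 h (95% interval -0.34 to 0.13, edgeR adjusted p = 0.407) and -0.08 after 10 h (-0.31 to 0.15, edgeR adjusted p = 0.64). These intervals leave out a change of 1.5-fold in either direction. Its transcripts have 58.7% GC, and with the GC-content offset the value after 1 h turned to 0.47 and was called (edgeR adjusted p = 6.2e-05), whereas it was -0.07 after 10 h.

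FOSL2 (GRCh37 chr2:28615315-28640184, plus strand), which encodes Fra-2, rose slightly at both times. It had 1975 and 1929 normalized counts in vehicle, 2336 and 2283 after 1 h, and 2296 and 2390 after 10 h. All 4 treated libraries were above both vehicle libraries. The log2 fold changes of 0.24 ± 0.09 after 1 h (SE, n = 2 per group, edgeR adjusted p = 0.0265) and 0.26 ± 0.09 after 10 h (edgeR adjusted p = 0.0384) were the smallest of the called values. Both calls were lost whenever any 1 of the 6 libraries was left out, with values between 0.21 and 0.29, and with DESeq2 (0.19 after 1 h and 0.24 after 10 h). A transcript-length offset also ended both calls, at 0.061 after 1 h (edgeR adjusted p = 0.536) and 0.22 after 10 h (edgeR adjusted p = 0.0626), whereas the GC-content offset gave 0.50 after 1 h and kept the call. The gene overlaps FOSL2-AS1 on the opposite strand, as JUNB overlaps HOOK2, and reads from such pairs cannot be told apart if strand was not used. FOSL2 also overlaps an unnamed long non-coding RNA gene on its own strand, from which strand would not separate it.

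JUN (GRCh37 chr1:59242517-59249720, minus strand, 1 exon) was the one member that moved in opposite directions at the 2 times. It had 2237 and 1785 normalized counts in vehicle, 2577 and 2838 after 1 h, and 1399 and 1204 after 10 h, and no 2 groups overlapped. JUN encodes c-Jun, the AP-1 subunit activated by the JNK kinases. The log2 fold change was 0.43 ± 0.12 after 1 h (SE, n = 2 per group, edgeR adjusted p = 0.00535) and -0.63 ± 0.12 after 10 h (edgeR adjusted p = 0.00129). From Nut 1h to Nut 10h it fell by 1.06 on the log2 scale, which is 2.08-fold (edgeR adjusted p = 3.06e-06). The rise after 1 h was larger with the GC-content offset, at 0.85, but lost its call without replicate 2 of Nut 0h (0.26, edgeR adjusted p = 0.0984) or without replicate 2 of Nut 1h (0.35, edgeR adjusted p = 0.0878). The value after 10 h kept its call in all 18 other fits, between -0.79 and -0.46.

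JUNB (GRCh37 chr19:12902300-12904129, plus strand) and JUND (GRCh37 chr19:18390504-18392432, minus strand), which encode subunits known as weaker activators that often restrain growth, shared a pattern in which the Nut 1h libraries were low and the Nut 10h libraries were close to vehicle. JUNB had 8985 and 7322 normalized counts in vehicle, 3896 and 4075 after 1 h, and 7385 and 6371 after 10 h. JUND had 11504 and 8720 in vehicle, 2703 and 3324 after 1 h, and 11105 and 7939 after 10 h. For both genes the Nut 1h libraries lay below the other 4, and the Nut 10h values overlapped those of vehicle. After 1 h JUNB was 2.05-fold lower (log2 fold change -1.03 ± 0.11, SE, n = 2 per group, edgeR adjusted p = 2.92e-06) and JUND was 3.36-fold lower (-1.75 ± 0.16, edgeR adjusted p = 8.56e-07).

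After 10 h neither gene was called against vehicle. The log2 fold change of JUNB was -0.25 (95% interval -0.49 to -0.01, edgeR adjusted p = 0.117) and that of JUND was -0.09 (-0.43 to 0.25, edgeR adjusted p = 0.724). JUNB after 10 h lay close to the threshold. It was called lower without replicate 2 of Nut 0h (-0.39, edgeR adjusted p = 0.0275), without replicate 1 of Nut 10h (-0.35, edgeR adjusted p = 0.0338), with no low-count filter (-0.29, edgeR adjusted p = 0.0251) and with the GC-content offset (-0.20, edgeR adjusted p = 0.0245), and it was at -0.09 without replicate 1 of Nut 0h. From Nut 1h to Nut 10h, JUNB rose by 0.79 (edgeR adjusted p = 2.73e-05) and JUND by 1.66 (edgeR adjusted p = 7.77e-07) on the log2 scale. The replicates of JUND were far apart at every time, by 0.40, 0.30 and 0.48 on the log2 scale, more than in 97.1%, 96.6% and 99.1% of genes of mean count 100 or more.

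JUNB and JUND are GC-rich, and genes of similar base composition were also low after 1 h. JUNB transcripts have 64.9% GC, higher than 95.9% of tested genes, and the 1797 genes of 60 to 65% GC had a median of -1.03, the value of JUNB itself. JUND transcripts have 69.9% GC, higher than 99.5% of tested genes, and its -1.75 lay between the quartiles of -1.94 and -1.12 of the genes above 65% GC. Of the genes of 60 to 65% GC, 82.6% were called lower after 1 h, and of those above 65% GC, 89.5%. With the GC-content offset, JUNB after 1 h was at -0.03 and was not called (edgeR adjusted p = 0.725), and JUND was at -0.44 and remained called (edgeR adjusted p = 0.000526). The contrast of Nut 10h with Nut 1h then turned to -0.17 for JUNB (edgeR adjusted p = 0.0413, or 0.0562 with the replicate block) and was 0.45 for JUND. A change of GC-rich mRNAs in the cells and a difference between libraries cannot be told apart here, since the trend after 1 h coincides with the condition. JUNB and JUND were also lower in replicate 2 than in replicate 1 of Nut 0h and of Nut 10h, and higher in that of Nut 1h. The offset raised the number of genes called after 10 h from 4810 to 6443. Whether GC content separates replicates within a condition was not tested. Both genes have a single exon, as do 8.35% of tested genes in their canonical transcript, and JUN shares this structure with 56.1% GC.

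**Figure D3:**
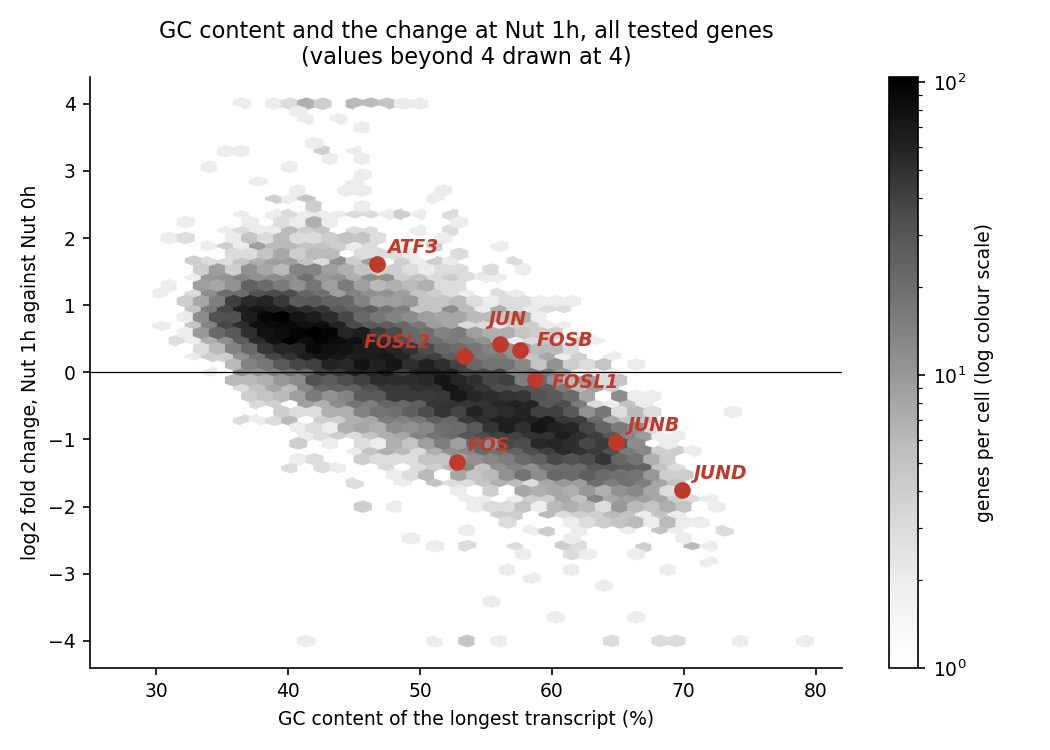
Log2 fold change after 1 h against Nut 0h (vertical axis) by GC content of the longest transcript in percent (horizontal axis) for the tested genes with a GC value, shaded by the number of genes, with the 8 members in red. JUNB lies on the slope of the other genes at -1.03, FOS and JUND lie below it at -1.33 and -1.75, and ATF3 and JUN lie above it at 1.62 and 0.43.

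ATF3 (GRCh37 chr1:212738676-212794119, plus strand) was upregulated at both times and had the largest rise of the 8 genes. It had 732 and 617 normalized counts in vehicle, 1974 and 2168 after 1 h, and 2052 and 1646 after 10 h. All 4 treated libraries were far above both vehicle libraries. The level was 3.07-fold higher after 1 h (log2 fold change 1.62 ± 0.13, SE, n = 2 per group, edgeR adjusted p = 2.35e-07) and 2.74-fold higher after 10 h (1.45 ± 0.13, edgeR adjusted p = 8.06e-07). Nut 10h against Nut 1h was not called (-0.16, 95% interval -0.42 to 0.09, edgeR adjusted p = 0.24), but was called lower with the transcript-length offset (-0.36, edgeR adjusted p = 0.00575) and without replicate 1 of Nut 10h (-0.29, edgeR adjusted p = 0.0418). The gene overlaps RN7SL512P, a small RNA gene on the opposite strand. ATF3 transcripts have 46.7% GC, and with the GC-content offset the rise was 1.46 after 1 h and 1.43 after 10 h. Over 18 other fits the value was called each time and lay between 1.46 and 1.86 after 1 h and between 1.29 and 1.62 after 10 h.

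With the GC-content offset, 5 members were higher and 2 lower after 1 h, against 23.6% of all tested genes higher and 25.2% lower. The 5 were FOSB, FOSL1, FOSL2, JUN and ATF3, and the 2 were FOS and JUND. The median over the members was then 0.48 after 1 h, and it was 0.004225 over all tested genes. After 1 h the offset changed the call of 3 genes (FOSB, FOSL1 and JUNB) and the size of others, moving JUND from -1.75 to -0.44, JUN from 0.43 to 0.85 and FOSL2 from 0.24 to 0.50, while FOS and ATF3 moved least among the called genes. After 10 h the offset gave 2 members higher and 3 lower, with JUNB added, against 18.3% and 20.6% of all tested genes. In the direct contrast of Nut 10h with Nut 1h without the offset, 2 members were higher (JUNB and JUND) and 2 lower (FOSB and JUN), against 34.2% and 33.7% of all tested genes. With the offset, 1 member was higher (JUND) and 5 were lower (FOSB, FOSL1, FOSL2, JUN and JUNB), against 4951 and 4807 of the 16565 tested genes. The median over the members in this contrast was 0.02 without the offset and -0.20 with it.

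**Figure D4:**
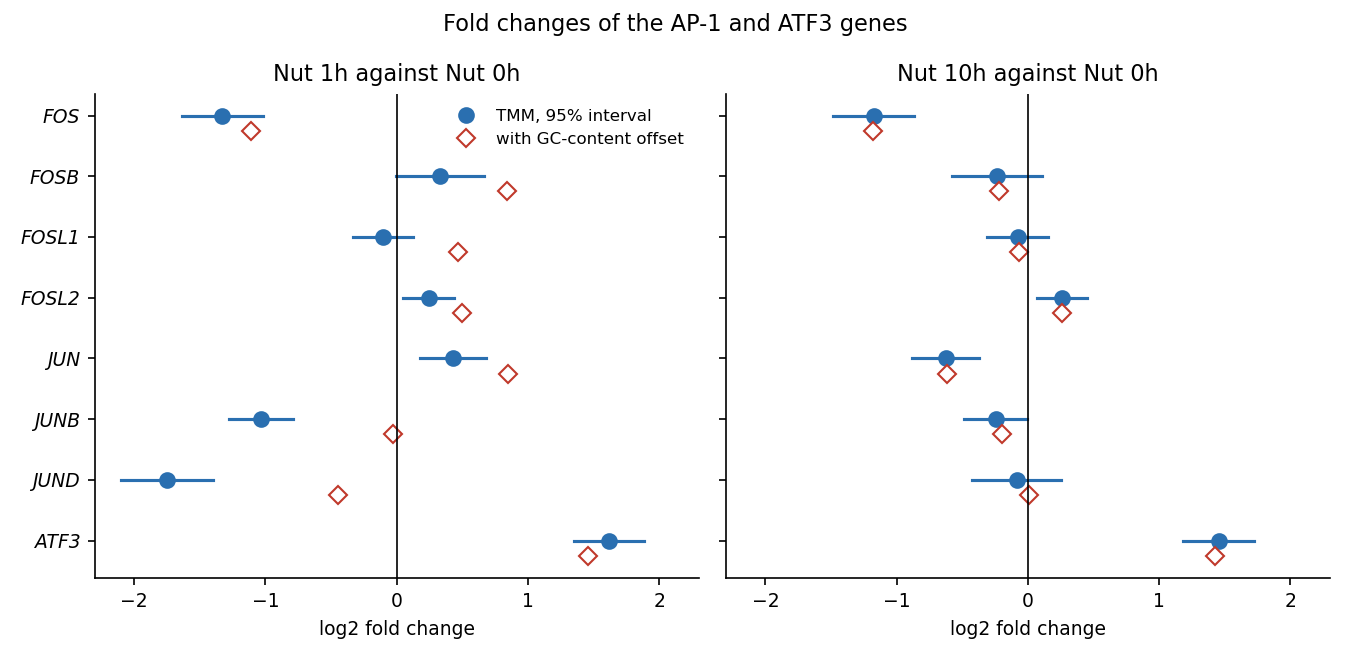
Log2 fold change of each gene against Nut 0h after 1 h (left) and Nut 10h (right), with filled circles and lines for the TMM value and its 95% interval and open diamonds for the value with the GC-content offset. After 10 h the diamonds lie next to the circles, whereas after 1 h they are shifted to the right for the GC-rich genes, by the most for JUND, from -1.75 to -0.44.

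Levels of different genes were compared as CPM per kilobase of exon. In vehicle-treated cells JUND (158.8), FOSL1 (157.9) and JUNB (135.0) were the highest, and neighbours in this order overlapped between replicates. FOS followed at 31.2, JUN at 16.8 and FOSL2 at 8.26, each clear of the next, and FOSB (5.58) and ATF3 (5.11) overlapped at the bottom. After 1 h the order was FOSL1, JUNB, JUND, JUN, ATF3, FOS, FOSL2 and FOSB, from 146.9 to 7.03, with no overlap of neighbours. ATF3 was above FOS after 1 h, at 15.7 against 12.4. After 10 h FOSL1 (149.7) and JUND (149.5) were again alike, JUNB was at 113.8, and ATF3, FOS, JUN and FOSL2 formed a chain of overlapping neighbours between 14.0 and 9.91. The order depends on the length used, and with the longest transcript in place of all exons 3 of the 8 genes kept their rank in vehicle and 6 after 1 h. ATF3 in vehicle was then above FOSB and, with overlap, above FOSL2, at 10.6 and 8.89 in its 2 libraries.

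Within the FOS family, FOSL1 made up 76.7 to 78.8% of the summed level per kilobase in the vehicle libraries, 82.7 to 84.0% after 1 h and 81.6 to 86.4% after 10 h. The share of FOS was 14.8 and 16.1% in the vehicle libraries, 7.46 and 6.70% after 1 h, and 6.13 and 9.41% after 10 h. Within the JUN family, JUN made up 5.37 and 5.46% in the vehicle libraries, 16.8 and 16.6% after 1 h, and 3.79 and 4.19% after 10 h. The Nut 1h share of JUN was apart from the other libraries, and the shares of a family add up, so it moves with the levels of JUNB and JUND given above. The summed level of the JUN family was 348.0 and 273.0 in vehicle, 128.5 and 143.4 after 1 h, and 308.3 and 240.2 after 10 h. These levels and shares carry no GC-content offset, with which the log2 fold change after 1 h was -0.03 for JUNB, not called, and -0.44 for JUND. The summed level of the FOS family stayed between 166.2 and 217.9 in all 6 libraries. These shares are descriptions of mRNA levels and were not tested.

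**Figure D5:**
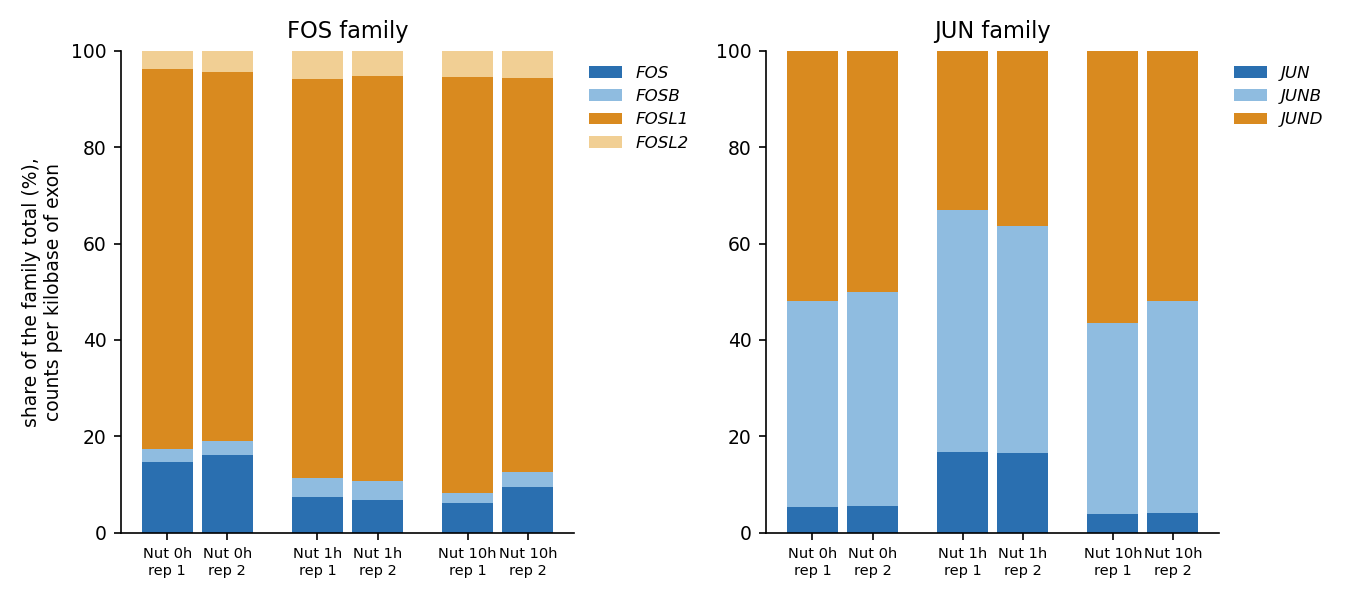
Share of each gene in the summed level of its family (counts per kilobase of exon, in percent) in each library, for the FOS family (left) and the JUN family (right). FOSL1 fills more than 76% of the FOS family in each library, and the JUN segment is widest in both Nut 1h libraries, at 16.8 and 16.6%.

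The gene whose profile over the 6 libraries was nearest to each member was found among 11568 genes by the root mean square difference of centred log2 CPM, a level relative to the gene's own mean. For JUNB this was FOXP4 (0.02), for FOSL2 FAM8A1 (0.03), for FOSL1 SURF6 (0.03), for JUND TNFRSF18 (0.05), for JUN HMGN2P5 (0.07) and for FOSB RP11-423H2.1 (0.11). FOS and ATF3 had no near neighbour, the closest being LFNG at 0.20 and AC005336.4 at 0.19. For no member was another member the nearest, and the closest pair of members was FOSL1 and FOSL2 at 0.19. Over 6 libraries of 3 conditions such likeness is a description of the profile alone.

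Genes around AP-1 were read from fixed lists. Of 19 partners of the zipper superfamily, 17 were tested, and 5 were higher and 6 lower after 1 h (34.5% and 32.3% of all tested genes) and 1 higher and 2 lower after 10 h (14.1% and 14.9%). JDP2, a repressor that binds JUN proteins, had 641 and 532 normalized counts in vehicle, 286 and 283 after 1 h, and 447 and 315 after 10 h. It fell by 1.04 after 1 h (edgeR adjusted p = 4.91e-05) and by 0.62 after 10 h (edgeR adjusted p = 0.00689), and like FOS it kept these calls with the GC-content offset (-0.91 and -0.64). MAFK, a small MAF protein, fell by 0.77 after 1 h but was at 0.12 and not called with the offset (edgeR adjusted p = 0.299). ATF5, a stress-responsive relative of ATF4, moved in opposite directions at the 2 times. It rose by 0.60 after 1 h (edgeR adjusted p = 0.000203), or by 1.23 with the offset, and fell by 0.37 after 10 h (edgeR adjusted p = 0.0201).

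Upstream of AP-1, 21 of 23 listed MAP kinase pathway genes were tested, and 8 were higher and 9 lower after 1 h (34.5% and 32.3% of all tested genes) and 3 higher and 4 lower after 10 h (14.1% and 14.9%). Once the GC-content offset was applied, 3 were higher and 10 lower after 1 h (23.6% and 25.2% of all tested genes) and 4 higher and 8 lower after 10 h (18.3% and 20.6%). MAP2K2 and MAPK3, which encode the kinases MEK2 and ERK1, fell by 1.51 and 1.44 on the log2 scale after 1 h and by 0.85 and 0.68 with the GC-content offset. MAPK9, which encodes a JNK kinase, fell by 0.60 after 10 h (edgeR adjusted p = 0.000299), and MAPK7, which encodes ERK5, by 0.43 (edgeR adjusted p = 0.0101). Of 6 genes for SRF and its cofactors, which switch on FOS after growth signals, 2 were higher and 2 lower after 1 h, a share close to the 34.5% and 32.3% of all tested genes, and 1 was higher and 0 lower after 10 h (14.1% and 14.9%) by edgeR's quasi-likelihood test, with 0 lower also at an unadjusted p under 0.05 and by DESeq2. With the offset for GC content, 2 were higher and 3 lower after 1 h (23.6% and 25.2% of all tested genes) and 2 were higher and 0 lower after 10 h (18.3% and 20.6%). SRF itself was at -0.10 after 1 h and not called (edgeR adjusted p = 0.371), and was called at 0.61 with the offset (edgeR adjusted p = 1.0e-06). ELK4, a ternary complex factor, rose by 1.66 after 1 h and by 1.05 with the offset, and MRTFA, listed as MKL1, fell by 1.28 after 1 h and by 0.52 with the offset. ELK3, another ternary complex factor, rose by 0.39 after 10 h (edgeR adjusted p = 0.00445).

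Immediate early mRNAs are unstable in part through AU-rich elements, whose core is the pentamer ATTTA. The longest transcripts of FOS and ATF3 held 5 such pentamers each and that of FOSL2 held 9. Those of FOSB and JUN held 3 each, those of JUNB and JUND 2 each and that of FOSL1 held 1. The median over tested genes was 3. At least 9 were held by 23.3% of tested genes and at least 5 by 39.8%. Pentamers were counted over the whole transcript without correction for length, which was 6713 bases for FOSL2 beside a median of 3344. AU-rich elements as such were not located. Of 10 genes of AU-rich element binding and deadenylation, 3 were higher and 3 lower after 1 h (34.5% and 32.3% of all tested genes), or 1 and 1 with the GC-content offset (23.6% and 25.2%). After 10 h (14.1% and 14.9%), none was higher and 5 were lower after 10 h by edgeR's quasi-likelihood test, with 0 higher also at an unadjusted p under 0.05 and by DESeq2. KHSRP and HNRNPD, which encode proteins that bind these elements and speed decay, each fell by 0.58 after 10 h (edgeR adjusted p = 0.000917 and 0.0007). After 1 h KHSRP had fallen by 0.45 and HNRNPD had risen by 0.69 (edgeR adjusted p = 0.00174 and 3.72e-05), and with the GC-content offset neither was called, at 0.13 and 0.0018. TIA1 and CNOT7 each rose by 0.87 after 1 h, and with the GC-content offset they were at 0.19 and 0.16 and not called.

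Of 27 listed targets of AP-1, 21 were tested, and 7 were higher and 8 lower after 1 h (34.5% and 32.3% of all tested genes), whereas 10 were higher and none was lower after 10 h (14.1% and 14.9%) by edgeR's quasi-likelihood test. At an unadjusted p under 0.05, and also by DESeq2, 11 were higher and 0 lower after 10 h. Once the GC trend was offset, 9 were higher and 7 lower after 1 h (23.6% and 25.2% of all tested genes), and 11 were higher and 1, TGFB1, was lower after 10 h (18.3% and 20.6%), at -0.23 (edgeR adjusted p = 0.0162). The median log2 fold change of the 21 was 0.09 after 1 h and 0.40 after 10 h, beside 0.05 and 0.000174 over all tested genes. Many of these genes are also targets of other pathways, p53 and TGF-beta among them. MMP14, a membrane-bound metalloproteinase, had 749 and 623 normalized counts in vehicle, 492 and 485 after 1 h, and 1133 and 1208 after 10 h, and rose by 0.77 on the log2 scale after 10 h (edgeR adjusted p = 0.000115). TGFB1 and TIMP1 fell by 1.40 and 1.26 after 1 h and by 0.49 and 0.74 with the GC-content offset. The collagenase gene MMP1, whose promoter holds a well-known TRE, was near silent at no more than 26 counts, as were MMP3, MMP9, MMP10 and MMP13 at no more than 10 in any library.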

How the data were processed

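RNA-seq of HCT116 cells was analysed in 6 libraries, 2 biological replicates for each of Nut 0h, Nut 1h and Nut 10h. Conditions and replicate numbers came from the sample labels. The authors trimmed reads with Trim Galore 0.6.6, aligned them to GRCh37.p13 with STAR 2.7.0f and counted them with featureCounts of Subread 2.0.0, and the deposited matrix holds raw counts per gene without normalization. Strand setting, treatment of multimapping reads and the annotation release used for counting are not given in the sources used here. The authors' table of comparisons, with fold changes and p-values, served only to pair gene identifiers with symbols.

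Counts were filtered with filterByExpr, scaled by TMM and fitted in R 4.3.3 with edgeR 4.0.16 (limma 3.58.1), whose quasi-likelihood test was applied in 1 fit of all 6 libraries with condition as the only term. Benjamini-Hochberg adjustment covered all tested genes, and genes were called at 0.05. Transcript GC content, exon length and gene positions came from a GENCODE annotation on GRCh37, and 97.4% of tested genes had a GC value. The offsets were loess trends (span 0.4) per library. The procedure was tested on simulated data. The replicates of each condition differed by more than counting noise (chi-square per degree of freedom 5.4 to 17.6). The labels call them biological replicates, and p-values measure the spread between these samples.

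The 8 genes and the lists were chosen with earlier results of these data known. From each of the 5 lists, the text names for each time up to 2 called genes with the largest absolute fold change among those without overlap of the groups and with a mean normalized count of 100 or more, and MDM2 as the check of the treatment. A further gene of this rule is left out. SRF and, for 10 h, TGFB1 are named outside the rule, and some named genes are given with values at the other time as well. The MMP genes not tested were named after their values were seen. Alternatives were other normalizations, filters, offsets, designs and thresholds, DESeq2 1.42.0 and each library left out in turn.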

Additional observations from a re-analysis of the deposited data

Results flagged for a closer look

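For 4 of the 8 genes the response after 10 h differed from that after 1 h by the test of the difference itself, the contrast of both treated groups by edgeR's quasi-likelihood test. In this contrast 34.2% of all tested genes were called higher and 33.7% lower, so 4 of 8 is no more than the background. The log2 fold change of Nut 10h against Nut 1h was -0.57 for FOSB, -1.06 for JUN, 0.79 for JUNB and 1.66 for JUND. With the GC-content offset these values were -1.06 for FOSB, -1.47 for JUN, -0.17 for JUNB and 0.45 for JUND, so that JUNB changed direction.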

How the results depend on the processing

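Across the alternatives, ATF3 and FOS kept call and direction against Nut 0h at both times, JUND kept them after 1 h and, at the main threshold, JUN kept them after 10 h. The replicate numbers did not pair the samples across all conditions. The differences between replicates correlated at 0.45 for Nut 0h with Nut 10h. For Nut 1h they ran the other way, at -0.31 with Nut 0h and -0.28 with Nut 10h. A block term common to all conditions cannot represent both signs. With the replicate block 7 members were called after 1 h in place of 6, among 10979 of 16565 tested genes in place of 11077. FOSB was added at 0.32, and no other call of a member changed against Nut 0h. With the GC-content offset, FOSL1 after 1 h turned to 0.47 and JUND after 10 h to 0.0054 (0.0049 with the block). For Nut 10h against Nut 1h 6 members were then called in place of 4, 1 higher and 5 lower in place of 2 and 2. Of the 16565 tested genes, 9758 were called in place of 11246. In this contrast FOS was at -0.068 (-0.085 with the block), FOSL1 at -0.54, FOSL2 at -0.23 and JUNB at -0.17. With block and offset together JUNB lost that call (edgeR adjusted p = 0.0562), and 5 members and 9605 of the 16565 genes were called. A length offset gave FOSL1 0.16 after 1 h, and -0.038 for FOS and -0.19 for FOSL1 between the treated groups, where ATF3 was called at -0.36. With total counts alone, FOSL1 and FOSL2 between the treated groups were -0.0099 and -0.017, and the median of all genes after 1 h moved to 0.10. At an adjusted p of 0.01, 2980 genes and 13 list genes were called after 10 h, in place of 4810 and 26. With a log2 fold change of at least 1 as well, 3974, 1135 and 4746 genes were called after 1 h, after 10 h and between them, in place of 11077, 4810 and 11246, 4, 2 and 2 members in place of 6, 4 and 4, and 16, 1 and 23 list genes in place of 53, 26 and 57. Leaving out 1 library at a time, FOSL1 was -0.24 to 0.020 after 1 h, -0.20 to 0.054 after 10 h and -0.068 to 0.14 between them. In the same fits after 10 h, JUND was -0.35 to 0.15, JUNB -0.39 to -0.09 and FOSB -0.57 (without replicate 2 of Nut 10h) to 0.046. Between the treated groups FOS was -0.12 to 0.45 and ATF3 -0.29 (without replicate 1 of Nut 10h) to 0.038 in these fits. The causes were not tested. Normalized counts were 617 to 11504 per member, and having 2 replicates a group limits the precision.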
